A study of Mus musculus with 33 samples.

Results

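The collagen genes of the mouse were taken as the rows of the count table whose gene symbol is Col, a number, a lower-case a and a number. This rule found 44 genes among the 55401 in the table, and 43 of them passed edgeR's filter on low counts. Col10a1, the collagen of hypertrophic cartilage, was not tested, with 78 counts over all libraries, 15 of them at E14.5 and 6 at E8.5. The members comprised 11 fibrillar, 9 network-forming, 7 beaded-filament, 9 FACIT and 4 transmembrane collagens and 4 that belong to none of these classes. FACIT stands for fibril-associated collagens with interrupted triple helices, which sit on the surface of fibrils.

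The series sequenced polyA RNA of mouse embryos at 11 stages given in days of embryonic development. These were E8.5 and E9, then E9.5 and E10, then E10.5 and E11, then E11.5 and E12, and lastly E12.5, E13.5 and E14.5, with 3 libraries each and 33 in all. The labels name the tissue as frontal bone of the calvaria, the roof of the skull, at every stage and give no genotype, strain, sex or treatment. Neither do they state if replicates were different embryos or pools of them, so each p-value reflects spread among libraries, which may be technical. Column totals ran from 14516518 to 19964404 counts, and levels are given relative to the TMM-scaled library total (CPM), or per gene length as TPM where genes are set against each other.

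Collagens are secreted or membrane-bound proteins whose chains wind in threes into a triple helix. Fibrillar collagens form the banded fibrils of bone, dermis, tendon and cartilage, network collagens form the sheets of basement membranes, and beaded filaments link cells to the fibrils. In the vault of the skull, bone forms directly in mesenchyme, and osteoblasts secrete type I collagen that is later mineralised.

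The tissue label was set against markers of osteoblasts, the cells that lay down bone. The summed level of 6 osteoblast genes averaged 608 CPM at E14.5 (591 to 619) and 46.4 CPM at E8.5 (43.0 to 49.5). Of the 6, 4 were higher at E14.5, where 41.1% of all tested genes were higher and 33.5% lower. The sum was 31.2 CPM at E12.5 and 147 CPM at E13.5. The bone matrix gene Ibsp averaged 464 ± 13.7 CPM at E14.5 and 0.278 ± 0.182 CPM at E8.5 (SD, n = 3 each), and it was at 0 in all libraries of E9 and E9.5. Bglap, a marker of mature osteoblasts, was near 0 at both ends of the course, with 0.346 CPM at E14.5 and 0.215 CPM at E8.5. Other tissues were present at the same time. The summed level of 5 neuron markers reached 2120.0 CPM at E11.5, that of 5 neural progenitor markers was 31.2 CPM at E14.5 and 401 CPM at E8.5, and that of 4 basal epidermis keratin and p63 genes was 1031 CPM at E14.5 and 7.05 CPM at E8.5.

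Some libraries stood apart. The E12 libraries had 8.32%, 6.16% and 4.09% of counts in ribosomal protein genes, against stage means of 2.34% to 4.43% elsewhere, and globin genes took 1.10% to 2.42% of their counts. Lens crystallins summed to 42.5 CPM at E12 and 61.9 CPM at E11 but to under 1 CPM at every other stage. The E13.5 library c had 5.79% of counts in ribosomal protein genes, against 3.50% in both others. Levels at E12 and E13.5 are therefore given by library where they matter. The E14.5 against E8.5 calls were the same 40 genes in the same directions when the libraries of E11.5, of E12 and of E13.5 were left out of the model.

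Promoter sequences are shown for 3 pairs of genes whose levels are followed through the results, the type I and type III fibrillar genes Col1a2 and Col3a1, the head-to-head type IV genes Col4a5 and Col4a6, and the partner chains Col8a1 and Col8a2. Each sequence covers the 250 bases before the RefSeq start site, read 5′ to 3′ on the gene's own strand (RefSeq, GRCm38.p6). Capitals mark matches on either strand to 4 motifs, which may overlap. These were the CCAAT box, the GC box core GGGCGG, the TATA box spelled TATAAA, and the Runx core spelled TGTGGT. The windows lie at chr6:4505368-4505617 on the + strand for Col1a2, chr1:45311288-45311537 on the + strand for Col3a1, chrX:141475169-141475418 on the + strand for Col4a5, chrX:141474077-141474326 on the − strand for Col4a6, chr16:57754738-57754987 on the − strand for Col8a1 and chr4:126286544-126286793 on the + strand for Col8a2.
Col1a2: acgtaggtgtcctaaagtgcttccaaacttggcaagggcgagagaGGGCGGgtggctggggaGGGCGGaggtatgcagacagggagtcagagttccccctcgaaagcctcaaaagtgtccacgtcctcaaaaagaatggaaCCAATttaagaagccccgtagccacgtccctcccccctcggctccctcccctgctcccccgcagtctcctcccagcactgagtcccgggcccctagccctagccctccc
Col3a1: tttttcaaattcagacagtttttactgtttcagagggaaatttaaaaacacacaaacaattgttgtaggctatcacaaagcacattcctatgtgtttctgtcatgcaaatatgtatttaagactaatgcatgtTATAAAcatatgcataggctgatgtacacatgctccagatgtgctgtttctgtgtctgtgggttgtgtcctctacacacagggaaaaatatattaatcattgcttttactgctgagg
Col4a5: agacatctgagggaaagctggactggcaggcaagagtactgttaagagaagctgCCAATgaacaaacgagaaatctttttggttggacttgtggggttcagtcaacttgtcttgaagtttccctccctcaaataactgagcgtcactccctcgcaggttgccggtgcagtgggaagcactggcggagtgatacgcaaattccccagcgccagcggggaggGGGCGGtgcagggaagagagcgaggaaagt
Col4a6: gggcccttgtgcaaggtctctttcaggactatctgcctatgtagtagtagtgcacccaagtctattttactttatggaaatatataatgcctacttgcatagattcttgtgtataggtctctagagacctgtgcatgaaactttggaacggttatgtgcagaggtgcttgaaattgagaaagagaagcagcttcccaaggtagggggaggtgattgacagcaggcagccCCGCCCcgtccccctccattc
Col8a1: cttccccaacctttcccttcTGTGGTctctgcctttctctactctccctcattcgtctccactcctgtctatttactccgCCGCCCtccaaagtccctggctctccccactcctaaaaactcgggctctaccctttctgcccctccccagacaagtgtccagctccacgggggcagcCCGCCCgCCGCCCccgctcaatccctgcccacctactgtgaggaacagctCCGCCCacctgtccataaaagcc
Col8a2: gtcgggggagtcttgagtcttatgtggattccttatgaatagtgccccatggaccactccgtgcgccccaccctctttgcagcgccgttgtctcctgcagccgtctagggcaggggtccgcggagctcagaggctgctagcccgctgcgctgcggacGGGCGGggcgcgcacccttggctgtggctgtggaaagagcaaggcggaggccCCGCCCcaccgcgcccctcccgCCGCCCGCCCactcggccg

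The Col1a2 window held 2 GGGCGG matches and a CCAAT match that starts 109 bases before the start site, and the Col3a1 window held a TATAAA match 117 bases before it. The Col4a5 window held a CCAAT and a GGGCGG match and the Col4a6 window a GGGCGG match. The Col8a1 and Col8a2 windows each held 4 GGGCGG matches, and Col8a1 also held a TGTGGT match. Across the members, 35 of 44 had a window in the RefSeq table, with 38 windows in all. Matches to GGGCGG occurred in 57.9% of these windows, against 32.7% of all 32851 windows of the same length. CCAAT occurred in 34.2% of the collagen windows, against 33.8% of all windows, TATAAA in 13.2%, against 12.4%, and TGTGGT in 7.89%, against 14.05%. The median GC content was 59.0% in the collagen windows and 52.4% in all windows. These matches describe the letters of the windows and were not tested. Col1a1, Col2a1, Col4a3, Col5a2, Col9a3, Col12a1, Col14a1, Col22a1 and Col26a1 are named only.

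Collagen transcripts as a whole were most abundant at the last stage. Summed over the members, they made up 0.597% ± 0.00826 of all TPM at E14.5 and 0.0818% ± 0.00200 at E8.5 (SD, n = 3 each). In between, it was 0.117% at E9, 0.115% at E9.5, 0.111% at E10, 0.128% at E10.5, 0.142% at E11 and 0.218% at E11.5. E12 had 0.120%, E12.5 had 0.170% and E13.5 had 0.353%. The 3 libraries of E12 differed widely, with 0.0689%, 0.107% and 0.185%, and those of E13.5 had 0.387%, 0.380% and 0.292%. In bulk RNA, fewer cells of a type and less RNA per cell cannot be told apart, and this holds for each level below.

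The mix of collagen types differed between the ends of the course. Fibrillar genes supplied 58.5% of collagen TPM at E14.5 and 41.9% at E8.5. FACIT genes supplied 15.1% at E14.5 and 4.60% at E8.5, and beaded-filament genes 11.8% at E14.5 and 1.10% at E8.5. Network genes supplied 8.60% at E14.5 and 26.4% at E8.5, transmembrane genes 1.54% at E14.5 and 4.24% at E8.5, and the 4 others 4.45% at E14.5 and 21.7% at E8.5. For none of the 6 classes did the 3 libraries of E14.5 overlap those of E8.5 in this share. The shares add to 100% in each library, so these are not 6 independent separations. How often such separation occurs among all genes was not computed. The most abundant collagen transcript per length was Col18a1 at E8.5 and E9, with 17.6% and 17.1% of collagen TPM, Col3a1 from E9.5 to E12.5, and Col1a1 at E13.5 and E14.5, with 22.6% and 18.5%.

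**Figure D1:**
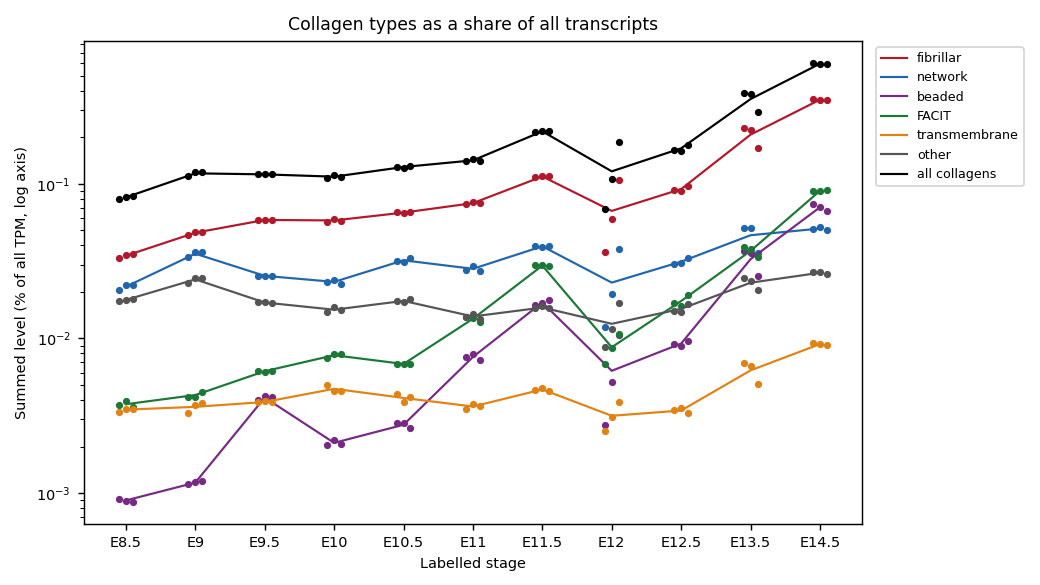
Summed TPM of each collagen class as a percent of all TPM (log axis) at the 11 stages, with points for libraries and lines through stage means. Fibrillar genes held the largest share of collagen TPM at both ends, and beaded-filament genes moved from the smallest share, 1.10% of collagen TPM at E8.5, to 11.8% at E14.5.

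Between E14.5 and E8.5, 37 of the 43 tested collagen genes were higher at E14.5, 3 were lower and 3 did not pass (edgeR quasi-likelihood test with Benjamini-Hochberg adjustment over 20073 genes, adjusted p under 0.05). Among all genes tested, 41.1% were higher and 33.5% were lower in this comparison. The median log2 fold change was 3.63 for the collagens and 0.16 for all genes. Over the 11 stages, 43 of 43 passed the F-test for any change, a test that 95.3% of all genes passed. The highest stage mean fell at E14.5 for 30 collagen genes, which is 69.8% of them, against 19.9% of all tested genes. By class, 10 of 11 fibrillar genes were higher and 1 was lower, 7 of 7 beaded-filament, 9 of 9 FACIT and 4 of 4 transmembrane genes were higher, and 3 of the 4 others were higher and 1 was lower. Of the 8 network genes tested, 4 were higher, 1 was lower and 3 did not pass. With libraries scaled to column totals alone, the median of all genes was 0.59 and the split of the collagens was 40 higher and 2 lower.

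**Figure D2:**
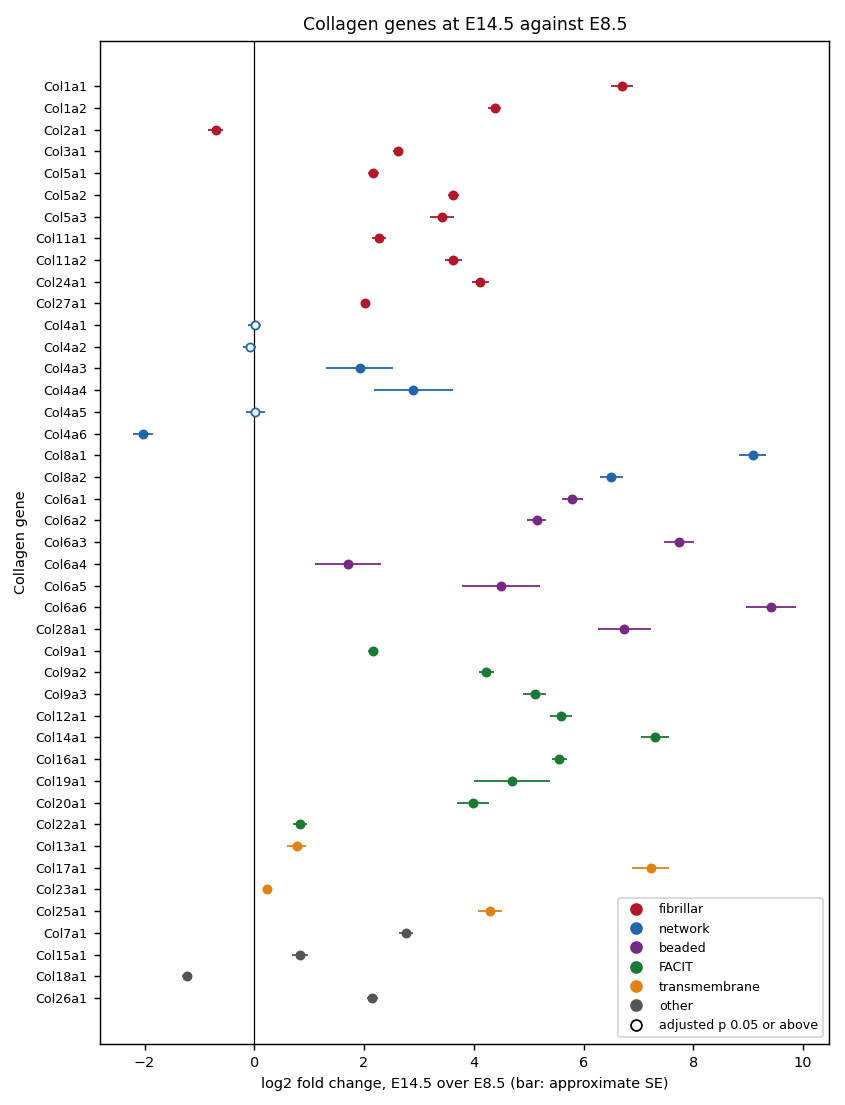
Log2 fold change at E14.5 over E8.5 for the 43 tested collagen genes, grouped by class, with bars of 1 approximate standard error and open symbols for genes with an edgeR adjusted p of 0.05 or more. Col4a6, Col18a1 and Col2a1 are the 3 filled symbols below 0, and Col4a1, Col4a2 and Col4a5 are the 3 open symbols near 0.

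**Figure D3:**
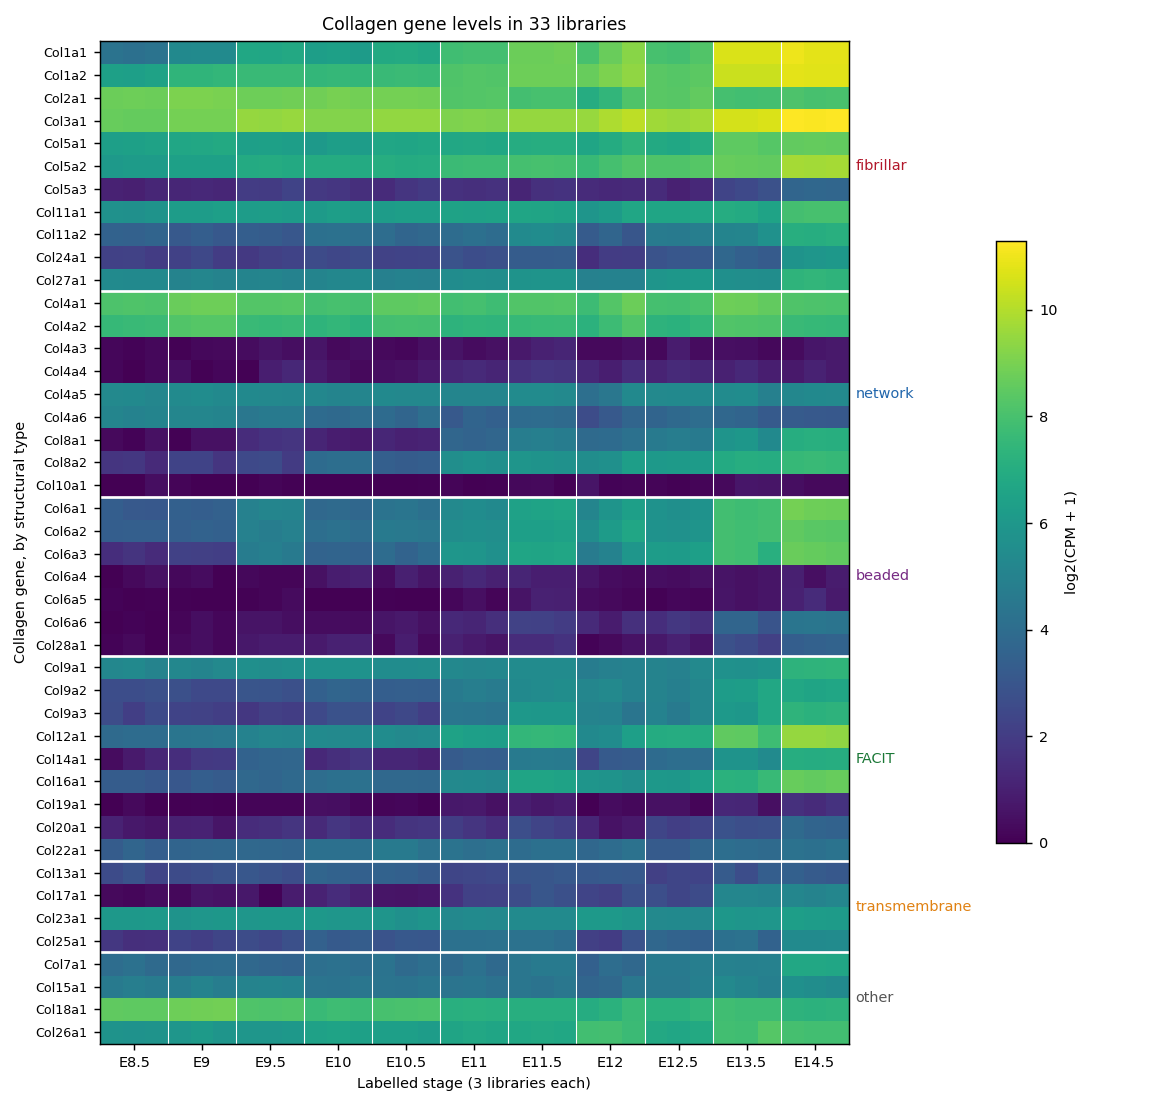
Level of the 44 collagen genes as log2(CPM + 1) in the 33 libraries, ordered by stage from left to right and by class from top to bottom. Of the 43 tested genes, 30 have their highest stage mean in the E14.5 columns, while Col18a1, Col2a1 and the abundant type IV genes are already high at E8.5 and E9.

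The fibrillar genes of bone and dermis carried the largest levels. Col1a1 (ENSMUSG00000001506, chr11:94936224-94953042, + strand, GRCm38), the main chain of type I collagen, measured 2019, 1800.2 and 1825 CPM in the E14.5 libraries, against 18.8, 16.7 and 18.6 CPM in the E8.5 libraries. The groups were far apart, with a log2 fold change of 6.70 ± 0.20 (SE, edgeR adjusted p = 1.97e-22). Its stage means were 18.03 CPM at E8.5, 40.8 at E9, 105 at E9.5, 78.8 at E10, 114 at E10.5, 236 at E11 and 438 at E11.5. They then went through 430.3 CPM at E12 and 264 at E12.5 before 1597 at E13.5 and 1882 at E14.5. The E12 libraries spread from 256 to 621 CPM, while those of E13.5 had an SD of 16.5 CPM.

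Col1a2 (chr6:4504814-4541544, + strand), the second chain of the type I trimer, measured 1812, 1760.4 and 1769 CPM at E14.5, against 84.7, 81.6 and 90.4 CPM at E8.5. Its rise, 4.38 ± 0.11 on the log2 scale (edgeR adjusted p = 6.25e-24), started from a higher level than that of its partner. Col3a1 (chr1:45311538-45349706, + strand), which forms the fine fibrils of soft connective tissue and vessel walls, measured 2491, 2389.8 and 2472 CPM at E14.5, against 408, 389 and 394 CPM at E8.5. It rose by 2.62 ± 0.09 (edgeR adjusted p = 6.8e-21) and was thus among the abundant collagens at the start as well as at the end. Per gene length, Col1a1 averaged 1108 TPM at E14.5 and 7.62 TPM at E8.5, Col3a1 965 TPM at E14.5 and 112 TPM at E8.5, and Col1a2 554 TPM at E14.5 and 19.1 TPM at E8.5. Meninges, another tissue of the region rich in these fibrils, were followed by 3 markers, which summed to 133 CPM at E14.5 (129 to 138) and 35.6 CPM at E8.5 (33.5 to 37.9). Of the 3 markers, 2 were higher at E14.5 and 1 was lower, where 41.1% of all genes were higher and 33.5% lower. The part of the meninges was not tested.

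The minor fibrillar chains of type V, which join type I fibrils, also rose. Col5a2 measured 879, 849.8 and 869 CPM at E14.5, against 65.4, 71.5 and 73.2 CPM at E8.5, a log2 fold change of 3.63 ± 0.10 (edgeR adjusted p = 3.47e-23). Col5a1 measured 383, 386 and 385 CPM at E14.5, against 81.2, 85.1 and 90.02 CPM at E8.5. The 5 fibrillar genes Col5a3, Col11a1, Col11a2, Col24a1 and Col27a1 rose by 2.02 to 4.12 on the log2 scale, with Col24a1 highest and Col27a1 lowest. Col3a1 and Col5a2 lie 24615 bases apart on chromosome 1.

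Col2a1 (chr15:97975602-98004695, − strand), the fibrillar collagen of cartilage and notochord, was the exception among the fibrillar genes. It measured 282, 252 and 262 CPM at E14.5, against 423, 448 and 428 CPM at E8.5, and the groups did not overlap. The log2 fold change was -0.71 ± 0.14 (edgeR adjusted p = 6.83e-05), and with column totals alone it was -0.27 (edgeR adjusted p = 0.157). Its highest mean was 529.7 CPM at E9 and its lowest 196 CPM at E12. Lists of markers for these 2 tissues went different ways between these stages. The 6 cartilage markers summed to 315 CPM at E14.5 (312 to 318) and 163 CPM at E8.5 (160.1 to 168). Of these, 4 genes were higher and 1 lower, where 41.1% of all genes were higher and 33.5% lower. At E8.5 most of this sum was Hapln1 and Sox9, with Matn1 and Acan near 0, so it does not show that cartilage was present. The 4 notochord markers summed to 6.21 CPM at E14.5 (5.68 to 6.87) and 40.0 CPM at E8.5 (36.1 to 42.8), with Noto at 0 in all E8.5 libraries. The part of either tissue, or of any other, in the Col2a1 level was not tested.

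Among the network collagens, the 3 that did not pass were basement membrane chains of type IV, and the 2 genes of type VIII had the largest rises. Col4a1 (chr8:11198423-11312826, − strand) and Col4a2 (chr8:11312805-11449287, + strand) encode the chains found in nearly every basement membrane. Col4a1 measured 290.1, 279 and 274 CPM at E14.5, against 277, 288 and 276 CPM at E8.5, with a log2 fold change of 0.00 ± 0.12 (edgeR adjusted p = 0.978). Col4a2 measured 198, 185 and 180.1 CPM at E14.5, against 189, 201 and 208 CPM at E8.5, with a log2 fold change of -0.09 ± 0.12 (edgeR adjusted p = 0.533). The libraries of the 2 stages overlapped for both genes.

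These calls depended on the scaling. With column totals alone, Col4a1 was 0.44 higher at E14.5 (edgeR adjusted p = 0.0133) and Col4a2 0.35 higher (edgeR adjusted p = 0.0430), and with a trend on gene length removed Col4a2 was at -0.26 (edgeR adjusted p = 0.0216). In CPM both had their highest stage mean at E9, with means of 430.3 CPM for Col4a1 and 309.6 ± 13.8 CPM for Col4a2, and at E13.5 Col4a1 was at 415 ± 31.5 CPM and Col4a2 at 288 CPM (SD, n = 3). In TPM the highest stage mean was at E13.5 instead, with 184 TPM for Col4a1, against 176 TPM at E9, and 143.04 TPM for Col4a2, against 142.69 TPM at E9, differences smaller than the spread between the E13.5 libraries. Endothelial markers, 5 genes of a cell type rich in basement membrane, summed to 398 CPM at E14.5 (387 to 415) and 259 CPM at E8.5 (255 to 264), with 308 CPM at E9. Of the 5 genes, 4 were higher at E14.5 than at E8.5 and 1 was lower, where 41.1% of all genes were higher and 33.5% lower. Afp, Ttr, Apoa1, Sox17 and Lama1 were listed as markers of the parietal and visceral endoderm, early tissues that lay down thick basement membrane. They summed to 123 CPM at E14.5, 153 CPM at E8.5 and 666 CPM at E13.5 (542 to 898), with Afp at 0 in all E8.5 libraries. With Afp at 0 at E8.5 and a larger sum at E13.5 than at E8.5, this list is not read as a measure of those early tissues. The part of the cells that express either list in these levels was not tested. The start sites of Col4a1 and Col4a2 lie 21 bases apart on opposite strands. Whether the counting used strand is not given in the sources used here, so reads from the short overlap of the 2 genes may not be told apart.

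Col4a5 and Col4a6, which pair in the basement membranes of skin and smooth muscle, share the same head-to-head layout on the X chromosome. Col4a6 fell, Col4a5 did not pass, and the difference between the 2 genes was not tested. Col4a6 (chrX:141165403-141474076, − strand) measured 8.39, 7.82 and 7.64 CPM at E14.5, against 33.8, 30.6 and 32.6 CPM at E8.5. That is the largest fall among the collagens, -2.02 ± 0.18 on the log2 scale (edgeR adjusted p = 2.94e-11). Col4a5 (chrX:141475385-141689234, + strand) measured 36.3, 40.5 and 38.8 CPM at E14.5, against 39.0, 39.3 and 35.7 CPM at E8.5, with a log2 fold change of 0.02 ± 0.17 (edgeR adjusted p = 0.917). With column totals alone Col4a5 was 0.45 higher (edgeR adjusted p = 0.0433). The start sites, whose upstream windows are printed above, lie 1343 bases apart.

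Most of the Col4a6 difference lay early in the course. Its stage means were 32.3 CPM at E8.5, 34.6 at E9, 22.8 at E9.5, 14.47 at E10 and 14.2 at E10.5, and 7.95 at E14.5. Col4a5 stayed between 33.9 and 41.7 CPM in stage means apart from 25.8 CPM at E12. Col4a3 and Col4a4, the chains known from the kidney filter, were scarce at all stages. Col4a3 measured 0.267, 0.589 and 0.687 CPM at E14.5, against 0.140, 0.0710 and 0.175 CPM at E8.5, and Col4a4 0.695, 1.12 and 0.778 CPM at E14.5, against 0.140, 0 and 0.175 CPM at E8.5. Both passed as higher, with edgeR adjusted p = 0.00587 for Col4a3 and 0.000701 for Col4a4. Their start regions are also neighbours, 72 bases apart on chromosome 1.

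The short-chain network collagens of type VIII, known from vessel walls and the lattice beneath the corneal endothelium, were close to absent at E8.5. Col8a1 (chr16:57624258-57754737, − strand) measured 129, 139 and 136 CPM at E14.5, against 0.211, 0.0710 and 0.409 CPM at E8.5, or 7985 counts against 11. The log2 fold change was 9.08 ± 0.25 (edgeR adjusted p = 3.2e-23). Col8a2 (chr4:126286793-126314330, + strand) measured 189, 197 and 189 CPM at E14.5, against 2.32, 2.56 and 1.52 CPM at E8.5, a log2 fold change of 6.51 ± 0.21 (edgeR adjusted p = 7.77e-22). Both rose between E10.5 and E11, with stage means of 1.18 and 11.9 CPM for Col8a1 and of 9.25 and 49.4 CPM for Col8a2. This was not the only step. Col8a2 had 79, 77 and 53 counts at E9.5 and 230, 271 and 288 at E10, and both genes were higher again at E14.5.

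Beaded-filament collagens passed as higher in 7 of 7 cases, where 41.1% of all tested genes were higher. The call for Col6a4, given below, was not firm. Col6a1 (chr10:76708792-76726168, − strand), Col6a2 (chr10:76595762-76623630, − strand) and Col6a3 (chr1:90765923-90843971, − strand) encode the chains of the common type VI microfilament, which anchors cells in connective tissue. Col6a1 measured 488, 447 and 434 CPM at E14.5, against 9.20, 7.81 and 7.72 CPM at E8.5, a log2 fold change of 5.79 ± 0.19 (edgeR adjusted p = 1.89e-21). Col6a2 measured 371, 331 and 321 CPM at E14.5, against 9.27, 9.73 and 9.82 CPM at E8.5, a log2 fold change of 5.15 ± 0.17 (edgeR adjusted p = 3.21e-21). Col6a3 had the largest log2 fold change of the 3. It measured 418, 389 and 371 CPM at E14.5, against 1.76, 2.20 and 1.58 CPM at E8.5, a log2 fold change of 7.74 ± 0.28 (edgeR adjusted p = 1.88e-20). At E13.5 its libraries had 237, 227 and 139 CPM, the lowest being the library rich in ribosomal protein counts.

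Col6a4, Col6a5 and Col6a6 encode chains that can take the place of the third one, and they lie in a row on chromosome 9 with gaps of 27918 and 28811 bases. Col6a6 (chr9:105687809-105828160, − strand) measured 19.8, 20.7 and 19.5 CPM at E14.5, against 0, 0.0710 and 0 CPM at E8.5. With 1184 counts against 1, its ratio was 1226 (95% interval 219.5 to 48449, which covers counting error only), and it passed with edgeR adjusted p = 1.69e-17. Col6a5 had 67 counts at E14.5 and 2 at E8.5, a ratio of 34.7 (95% interval 9.23 to 292). Col6a4 measured 0.962, 0.375 and 0.824 CPM at E14.5, against 0, 0.213 and 0.409 CPM at E8.5, so that the groups overlapped. It passed with edgeR adjusted p = 0.0122, but not without the E8.5 library a (0.0732) or the E14.5 library a (0.0534). Col28a1, a related filament collagen described in peripheral nerve, measured 9.20, 10.49 and 10.98 CPM at E14.5, against 0.0702, 0.213 and 0 CPM at E8.5.

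FACIT genes rose in 9 of 9 cases, where 41.1% of all tested genes were higher. Col16a1 (chr4:130047840-130099283, + strand) measured 409, 378 and 405 CPM at E14.5, against 8.78, 8.87 and 7.66 CPM at E8.5. Its log2 fold change of 5.56 ± 0.13 had the smallest edgeR adjusted p of the collagens, 1.42e-24. Col12a1 (chr9:79598991-79718831, − strand), which decorates type I fibrils in tendon, dermis and periosteum, measured 715, 717 and 678 CPM at E14.5, against 13.8, 14.8 and 15.1 CPM at E8.5, a log2 fold change of 5.59 ± 0.20 (edgeR adjusted p = 1.03e-20). Col14a1, which binds the same fibrils, measured 129, 126 and 132 CPM at E14.5, against 0.281, 0.781 and 1.29 CPM at E8.5. Tendon markers, a set of 3 genes, summed to 84.2 CPM at E14.5 (81.7 to 85.6) and 5.47 CPM at E8.5 (4.42 to 6.08), with Tnmd at 0 in all E8.5 libraries, and their part in these levels was not tested.

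The chains of type IX collagen, which coats cartilage fibrils, differed at the start. Col9a3 (chr2:180597790-180622189, + strand) measured 159, 147 and 158 CPM at E14.5, against 5.20, 3.27 and 4.85 CPM at E8.5, a log2 fold change of 5.11 ± 0.21 (edgeR adjusted p = 3.98e-19). Col9a2 measured 108, 96.4 and 102 CPM at E14.5, against 5.41, 5.25 and 5.67 CPM at E8.5. Col9a1 measured 156, 163 and 165 CPM at E14.5, against 36.1, 39.5 and 32.0 CPM at E8.5, so that its level at the start was well above 0, and it rose by 2.17 ± 0.09 on the log2 scale (edgeR adjusted p = 5.72e-19). The type IX genes were thus higher at E14.5 while Col2a1, whose fibrils they coat, was lower. Of the cartilage markers, Matn1 averaged 75.0 CPM at E14.5 and 0.238 CPM at E8.5, Acan 26.1 CPM at E14.5 and 0.763 CPM at E8.5, and Hapln1 121 CPM at both stages, while Sox9 averaged 21.4 CPM at E14.5 and 39.5 CPM at E8.5.

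Among the rarer FACIT genes, Col19a1 had 113 counts at E14.5 and 3 at E8.5, a ratio of 39.0 (95% interval 13.01 to 192). Col20a1 rose by 3.98 ± 0.29 on the log2 scale (edgeR adjusted p = 3.27e-13). Col22a1, known from the junction of muscle and tendon, measured 18.02, 16.9 and 18.8 CPM at E14.5, against 8.85, 11.998 and 9.41 CPM at E8.5, but its highest mean was 21.6 CPM at E10.5.

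The 4 transmembrane collagens rose by very different amounts. Col17a1 (chr19:47646344-47692094, − strand), a part of the hemidesmosomes that fix the epidermis to its basement membrane, measured 34.8, 32.3 and 34.7 CPM at E14.5, against 0.211, 0.142 and 0.292 CPM at E8.5. Its log2 fold change was 7.23 ± 0.33 (edgeR adjusted p = 6.79e-18), and its mean was 4.84 CPM at E12.5 and 34.5 CPM at E13.5. Basal epidermis markers summed to 49.4 CPM at E12.5, 851 CPM at E13.5 (754 to 1017) and 1031 CPM at E14.5 (963 to 1126). Against E8.5, 4 of 4 were higher at E14.5, where 41.1% of all genes were higher. Krt5 averaged 483 CPM at E14.5 and 1.25 CPM at E8.5. The part of the epidermis in the Col17a1 level was not tested.

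Col25a1 (chr3:130131501-130599877, + strand), a membrane collagen of neurons and developing muscle, measured 41.3, 41.7 and 42.0 CPM at E14.5, against 2.53, 1.85 and 1.99 CPM at E8.5, a log2 fold change of 4.30 ± 0.21 (edgeR adjusted p = 3.06e-17). Neuron markers summed to 479 CPM at E14.5 and 113 CPM at E8.5 and muscle markers to 249.6 CPM at E14.5 and 4.87 CPM at E8.5, with Myog at 0 in all E8.5 libraries, and their part was not tested. Col13a1, found at the neuromuscular junction, rose by 0.77 ± 0.17 (edgeR adjusted p = 0.000221), with 9.95, 8.51 and 7.55 CPM at E14.5, against 4.98, 6.32 and 3.98 CPM at E8.5. Col23a1 (chr11:51289920-51583918, + strand) measured 78.2, 74.2 and 73.0 CPM at E14.5, against 63.7, 63.8 and 65.5 CPM at E8.5, and passed as higher by 0.22 ± 0.07 (edgeR adjusted p = 0.00555). This small difference did not pass without the expression filter (0.26, edgeR adjusted p = 0.0626) or with the gene length trend removed (0.04, edgeR adjusted p = 0.610).

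The 4 remaining genes include the multiplexins and the anchoring fibril collagen. Col18a1 (chr10:77052178-77166548, − strand), a basement membrane multiplexin whose end fragment is endostatin, measured 158, 152 and 156 CPM at E14.5, against 371, 361 and 362 CPM at E8.5. It fell by 1.23 on the log2 scale (-1.23 ± 0.10, edgeR adjusted p = 1.23e-12), and its highest stage mean was 461 ± 12.3 CPM at E9 (SD, n = 3). It lies 326010 bases from Col6a1, which rose. Col15a1, the other multiplexin, went the other way, with 49.0, 45.5 and 41.8 CPM at E14.5, against 24.4, 27.3 and 24.9 CPM at E8.5 (0.83 ± 0.14, edgeR adjusted p = 4.9e-06).

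Col7a1 (chr9:108953586-108984875, + strand), which forms the anchoring fibrils under the epidermis, measured 109, 107 and 102 CPM at E14.5, against 15.5, 17.3 and 13.97 CPM at E8.5, a log2 fold change of 2.77 ± 0.12 (edgeR adjusted p = 3.67e-18). Its stage means stayed between 12.02 and 29.4 CPM up to E13.5, so its high level was seen at E14.5 only. The basal epidermis markers summed to 1031 CPM at E14.5 and 851 CPM at E13.5, and their part in the Col7a1 level was not tested. Col26a1 (chr5:136741759-136883209, − strand) measured 246, 235 and 236 CPM at E14.5, against 54.3, 53.4 and 53.8 CPM at E8.5, a log2 fold change of 2.15 ± 0.10 (edgeR adjusted p = 4.98e-18). In CPM its highest stage mean was 257 CPM at E13.5. There library c, rich in ribosomal protein counts, had 5064 counts of Col26a1, against 4087 and 4450 in the others. In TPM the highest stage mean was at E14.5 instead, with 113 TPM.

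**Figure D4:**
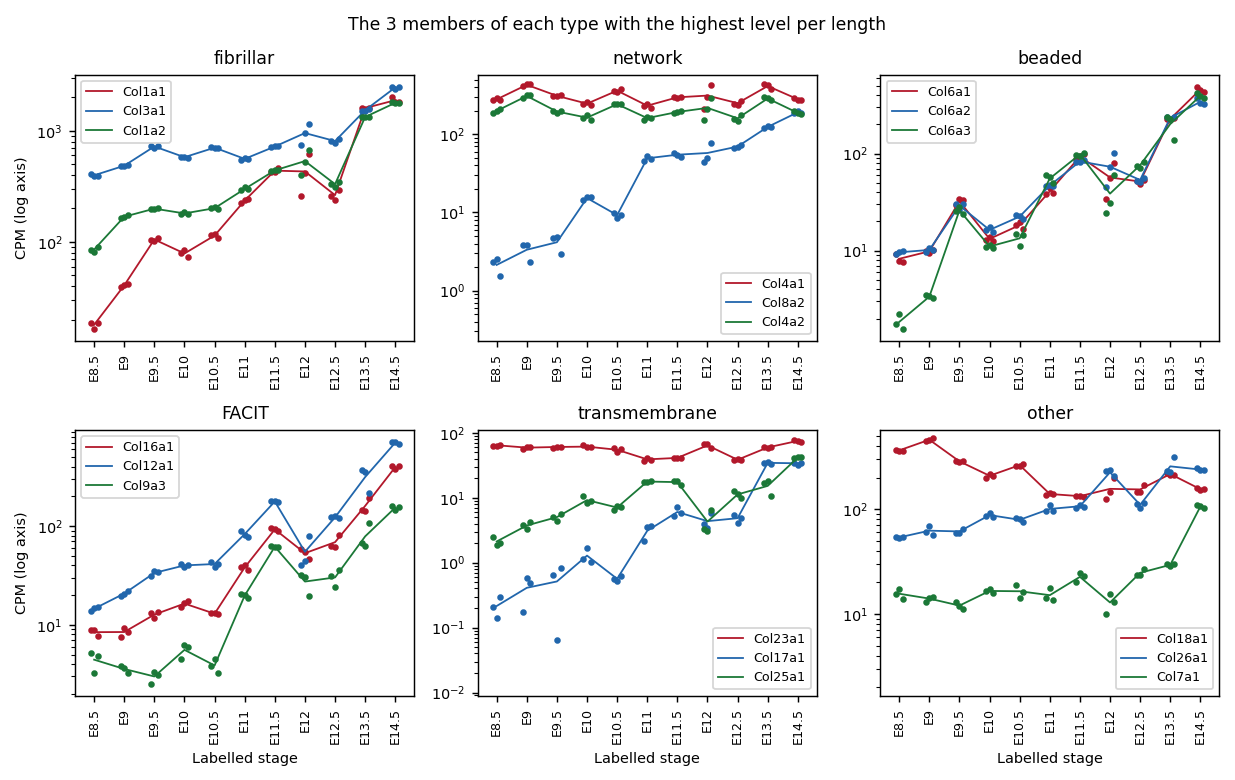
CPM (log axis) of the 3 most abundant tested genes of each collagen class at the 11 stages, with points for libraries and lines through stage means. Col1a1 is at 18.03 CPM in the mean at E8.5 and reaches 1882 CPM by E14.5, whereas Col4a1 and Col4a2 end near where they began and Col18a1 is highest at E9.

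The course was then divided into 3 windows, which share libraries with each other and with the comparison above. Between E10.5 and E8.5, 25 of 43 collagen genes were higher at E10.5, 5 were lower and 13 did not pass, where 28.2% of all genes were higher and 21.3% lower. The median log2 fold change was 0.78 for the collagens and 0.09 for all genes. Col6a3 and Col1a1 led the abundant genes, with log2 fold changes of 2.86 ± 0.28 (edgeR adjusted p = 1.01e-09) and 2.66 ± 0.17 (edgeR adjusted p = 9.4e-14). The 5 lower genes were Col4a6, Col18a1, Col27a1, Col15a1 and Col23a1. Only 3 were lower with column totals alone, or without the E10.5 library b, and Col15a1 and Col23a1 were those lost with column totals. By class, 6 of 7 beaded-filament and 6 of 9 FACIT genes were higher, but 1 of the 4 others. The beaded count rests in part on scarce genes. With only the libraries of the 2 stages in the model, Col6a4, Col6a6 and Col28a1 were not tested. Without the E8.5 library a or the E10.5 library b neither Col6a4 (edgeR adjusted p = 0.234 and 0.275) nor Col28a1 (edgeR adjusted p = 0.0526 and 0.241) passed, and Col28a1 did not pass without the E8.5 library c (edgeR adjusted p = 0.0935). Col6a4 passed narrowly with all libraries (edgeR adjusted p = 0.0484) and did not pass without the E8.5 library b (edgeR adjusted p = 0.101), without the E10.5 library c (edgeR adjusted p = 0.0718) or without most single libraries of the other stages. The osteoblast markers summed to 29.5 CPM at E10.5 and 46.4 CPM at E8.5, with 2 of 6 lower, the neuron markers to 999.5 CPM at E10.5 and 113 CPM at E8.5, with 5 of 5 higher, and the macrophage markers to 31.1 CPM at E10.5 and 0.612 CPM at E8.5, with 4 of 4 higher. Their part was not tested.

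Between E12.5 and E10.5, 24 collagen genes were higher at E12.5, 9 were lower and 10 did not pass, where 18.8% of all genes were higher and 17.2% lower. The median log2 fold change was 0.81 for the collagens and 0.03 for all genes. Col8a1 rose by 4.38 ± 0.20 (edgeR adjusted p = 3.57e-17), Col14a1 by 3.63 ± 0.23 (edgeR adjusted p = 1.58e-13) and Col17a1 by 3.08 ± 0.31 (edgeR adjusted p = 2.98e-09). The Col14a1 rise started from a dip, with 24, 25 and 21 counts at E10.5, against 184, 183 and 221 at E9.5. Col18a1, with -0.77 ± 0.09 (edgeR adjusted p = 1.16e-07), and Col4a1, with -0.53 ± 0.12 (edgeR adjusted p = 0.00107), were among the lower genes. So were Col13a1, with -1.33 ± 0.17 (edgeR adjusted p = 3.66e-07), and Col22a1, with -1.18 ± 0.13 (edgeR adjusted p = 1.88e-08), both of which had risen in the window before. Markers of several tissues moved in this window. Basal epidermis markers summed to 49.4 CPM at E12.5 and 4.24 CPM at E10.5, with 3 of 4 higher, muscle markers to 18.4 CPM at E12.5 and 3.88 CPM at E10.5, with 3 of 4 higher, and tendon markers to 29.5 CPM at E12.5 and 9.20 CPM at E10.5, with 3 of 3 higher. Osteoblast markers summed to 31.2 CPM at E12.5 and 29.5 CPM at E10.5, with 1 of 6 higher and 1 lower, and cartilage markers to 115 CPM at E12.5 and 111 CPM at E10.5, with 4 of 6 higher and 1 lower. The part of these tissues was not tested.

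Between E14.5 and E12.5, 34 collagen genes were higher at E14.5, 2 were lower and 7 did not pass, where 25.3% of all genes were higher and 28.6% lower. The median log2 fold change was 1.75 for the collagens, the largest of the 3 windows, and -0.03 for all genes. Higher genes included 10 of 11 fibrillar, 9 of 9 FACIT and 4 of 4 transmembrane genes, but 2 of 8 network genes, Col8a1 and Col8a2. The network count depended on the setting. Col4a2 (0.23, edgeR adjusted p = 0.125) passed as higher with DESeq2, its size factors, column totals, no filter or the gene length trend removed. It also passed with only the libraries compared, or without those of E11.5, E12 and E13.5, but not with the stricter filter or replicate block. Col4a1 (0.17, edgeR adjusted p = 0.273) passed with the length trend removed and with both smaller sets of libraries. Col1a1 rose by 2.84 ± 0.16 (edgeR adjusted p = 4.71e-15), Col6a1 by 3.15 ± 0.16 (edgeR adjusted p = 3.16e-16) and Col24a1, a minor fibrillar collagen known from bone, by 3.03 ± 0.15 (edgeR adjusted p = 9.73e-17). The lower genes were Col4a6, with -0.76 ± 0.18 (edgeR adjusted p = 0.000792), and Col2a1, with -0.38 ± 0.14 (edgeR adjusted p = 0.0241). The Col2a1 call was lost with DESeq2, its size factors, column totals or a stricter filter, and without any 1 of E8.5 a, E12.5 c, E14.5 b and E14.5 c, which left 1 lower gene in each case. Osteoblast markers summed to 608 CPM at E14.5 and 31.2 CPM at E12.5, with 5 of 6 higher, and basal epidermis markers to 1031 CPM at E14.5 and 49.4 CPM at E12.5, with 4 of 4 higher. Muscle markers summed to 249.6 CPM at E14.5 and 18.4 CPM at E12.5, with 4 of 4 higher, and tendon markers to 84.2 CPM at E14.5 and 29.5 CPM at E12.5, with 2 of 3 higher, while 3 of 5 neuron and 5 of 5 neural progenitor markers were lower. Their part in the collagen levels was not tested.

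The stages did not form a steady climb. In stage means, 33 of 43 collagen genes were lower at E12.5 than at E11.5, which is 76.7%, against 45.3% of all tested genes. This comparison was set because earlier results of these data showed the stages out of labelled order there. Its p-values are therefore no independent test of that order. Between these stages, 2 collagen genes were higher at E12.5, 19 were lower and 22 did not pass, where 15.2% of all genes were higher and 12.3% lower. The median log2 fold change was -0.36 for the collagens and 0.05 for all genes. With only the libraries of these stages in the model, 3 were higher and 25 lower of 42 tested. Lower genes comprised 7 of 9 FACIT and 6 of 7 beaded-filament genes and 3 of 11 fibrillar genes. The beaded count rests in part on scarce genes. Col6a4 did not pass without E11.5 a, E12.5 a, E12.5 b or E12.5 c, and Col6a6 did not without E11.5 a, E11.5 b, E12.5 a or E12.5 c. Col28a1 did not pass without E12.5 c, nor did the FACIT gene Col9a2 without E12.5 b. With only these libraries Col6a5 was not tested, while Col6a3 (-0.37, edgeR adjusted p = 0.156 with all libraries) passed as lower. Col1a1 measured 259, 239 and 293 CPM at E12.5, against 427, 428 and 458 CPM at E11.5, and was lower by 0.73 ± 0.15 on the log2 scale (-0.73, edgeR adjusted p = 0.000513). Col6a1 measured 52.3, 48.3 and 53.6 CPM at E12.5, against 87.4, 93.6 and 98.3 CPM at E11.5 (-0.86 ± 0.15, edgeR adjusted p = 6.78e-05). Col9a3 measured 30.9, 24.2 and 35.7 CPM at E12.5, against 63.5, 60.9 and 61.5 CPM at E11.5 (-1.04 ± 0.17, edgeR adjusted p = 2.25e-05). In each of these 3 genes, all among those that passed as lower, the groups did not overlap. How often such separation occurs among all genes between these stages was not computed.

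The 2 higher genes, Col2a1 (0.47 ± 0.14, edgeR adjusted p = 0.0133) and Col5a2 (0.25 ± 0.09, edgeR adjusted p = 0.0404), also depended on the setting. With column totals alone neither passed, nor did either without the E11.5 library a or the E12.5 library c. With a trend on gene length removed the split was 5 higher and 19 lower, and without the E12 library c there were 4 higher. Markers of other tissues moved between these stages too, where 15.2% of all genes were higher and 12.3% lower. Osteoblast markers summed to 31.2 CPM at E12.5 and 52.3 CPM at E11.5, with 3 of 6 lower, basal epidermis markers to 49.4 CPM at E12.5 and 124 CPM at E11.5, with 4 of 4 lower, and cartilage markers to 115 CPM at E12.5 and 133 CPM at E11.5, with 4 of 6 lower and 1 higher. Neuron markers summed to 1238 CPM at E12.5 and 2120.0 CPM at E11.5, with 5 of 5 lower, and 2 of 4 muscle markers were lower. Other sets went up. Neural progenitor markers summed to 450.1 CPM at E12.5 and 325 CPM at E11.5, with 3 of 5 higher, and tendon markers to 29.5 CPM at E12.5 and 22.1 CPM at E11.5, with 1 of 3 higher, while 2 of 5 endothelial and 3 of 5 red cell markers were higher. The part of these tissues in the collagen levels was not tested. With the E11.5 libraries in the place of those of E12.5, the second window had 29 higher and 6 lower collagen genes and the third 31 higher and 2 lower.

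Chains that assemble into the same trimer were compared as ratios of TPM within each library. These use the deposited exonic length of each gene, so the shift of a ratio between stages can be read, but its absolute value depends on that length. Col1a1 over Col1a2, whose trimer holds more Col1a1 than Col1a2 chains, lay between 1.94 and 2.11 in the E14.5 libraries and between 0.387 and 0.420 in the E8.5 libraries, with no overlap. In stage means it was 0.399 at E8.5, 0.458 at E9, 1.00 at E9.5, 0.826 at E10, 1.07 at E10.5, 1.49 at E11 and 1.88 at E11.5. E12 had 1.48, E12.5 had 1.51 and E13.5 had 2.28. The largest stage mean was thus 5.71 times the smallest.

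The type IV pair behaved otherwise. Col4a1 over Col4a2 was 1.33 ± 0.0264 at E14.5 and 1.25 ± 0.0668 at E8.5 (SD, n = 3 each), and all stage means lay between 1.23 at E9 and 1.41 at E9.5, a 1.14-fold range, although both genes varied in level. Col5a1 over Col5a2 was 0.498 ± 0.0102 at E14.5 and 1.37 ± 0.0305 at E8.5, with 0.431 at E12.5 and 0.975 at E13.5. In the type VI trimer, Col6a1 over Col6a2 was 2.55 ± 0.0400 at E14.5 and 1.64 ± 0.218 at E8.5, and Col6a3 over Col6a2 was 0.802 ± 0.0172 at E14.5 and 0.134 ± 0.0229 at E8.5. The Col6a3 ratio had already reached 0.823 at E11 and was 0.363 in the E12 libraries that stood apart.

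Cartilage chains shifted as well. Col9a1 over Col9a2 was 0.965 ± 0.0805 at E14.5 and 4.04 ± 0.574 at E8.5, with 2.86 at E10.5 and 0.876 at E11. Col9a3 over Col9a2 was 1.21 ± 0.0344 at E14.5 and 0.653 ± 0.140 at E8.5. Col11a1 over Col11a2 was 1.02 ± 0.0379 at E14.5 and 2.61 ± 0.0127 at E8.5, with 5.07 ± 0.743 at E9 and a wide 4.93 ± 2.54 at E12. Col8a1 over Col8a2 was 0.403 ± 0.00899 at E14.5 and 0.0741 ± 0.0718 at E8.5, the earlier value resting on 11 counts of Col8a1. For 3 libraries against 3, the smallest p an exact two-sided permutation test can give is 0.1, so these ratios are given with their spread and no test.

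**Figure D5:**
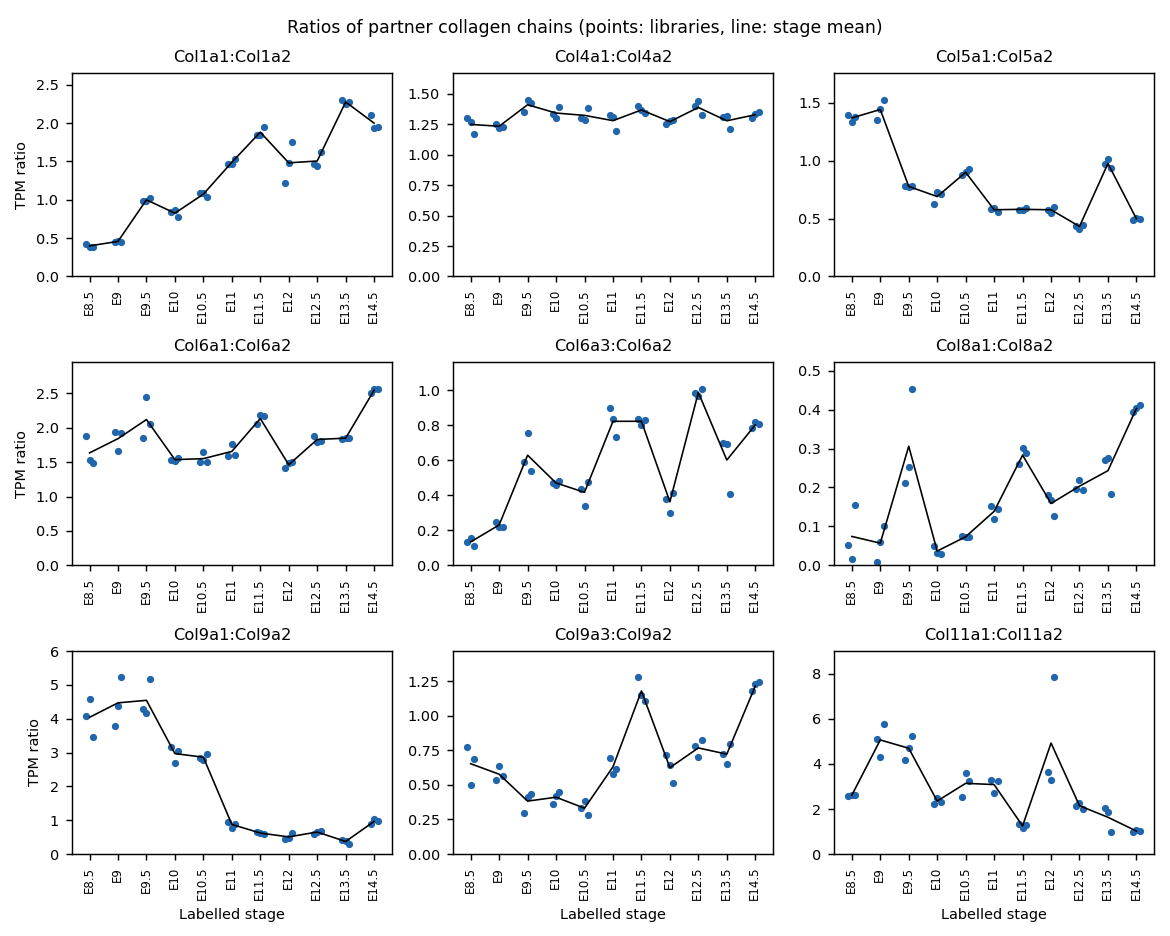
Ratio of TPM between partner chains at the 11 stages in 9 panels, with points for libraries and lines through stage means. Col1a1 over Col1a2 climbs between 0.399 at E8.5 and 2.28 at E13.5, while Col4a1 over Col4a2 stays between 1.23 and 1.41.

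Genes that modify, fold, trim and cross-link collagen chains were followed as a list of 30. Between E14.5 and E8.5, 25 were higher, 3 were lower and 2 did not pass, with a median log2 fold change of 1.31, set beside 41.1% higher and 33.5% lower among all genes. Lox, the enzyme that cross-links fibrils, averaged 410 ± 5.55 CPM at E14.5 and 3.41 ± 0.345 CPM at E8.5 (SD, n = 3 each), a log2 fold change of 6.90 ± 0.16 (edgeR adjusted p = 7.95e-25). Adamts2, which removes the amino-terminal propeptide of fibrillar procollagens, averaged 75.0 CPM at E14.5 and 1.10 CPM at E8.5, and rose by 6.11 ± 0.24 (edgeR adjusted p = 2.26e-19). P4ha3, a catalytic subunit of prolyl 4-hydroxylase, averaged 49.6 CPM at E14.5 and 0.911 CPM at E8.5, and rose by 5.74 ± 0.25 (edgeR adjusted p = 2.49e-18).

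The lower genes of this list were P3h2, a prolyl 3-hydroxylase that acts on type IV collagen, with 11.4 CPM at E14.5 and 28.4 CPM at E8.5 (-1.32 ± 0.27, edgeR adjusted p = 7.05e-05), Mia3, which helps load procollagen into transport carriers, with 86.9 CPM at E14.5 and 107 CPM at E8.5 (edgeR adjusted p = 0.0139), and Loxl2, a lysyl oxidase of basement membranes, with 61.8 CPM at E14.5 and 75.0 CPM at E8.5 (edgeR adjusted p = 0.0109). Plod3 and Adamts3 did not pass. At E10.5 against E8.5, 12 were higher and 9 lower, where 28.2% of all genes were higher and 21.3% lower. At E12.5 against E10.5, 11 were higher and 3 lower, where 18.8% of all genes were higher and 17.2% lower. At E14.5 against E12.5, 25 were higher and 0 lower, where 25.3% of all genes were higher and 28.6% lower.

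Collagen receptors were followed as a list of 10 integrin chains, discoidin domain receptors and other surface receptors. Between E14.5 and E8.5, 8 were higher, none was lower and 2 did not pass, where 41.1% of all genes were higher and 33.5% lower. Their median log2 fold change was 2.45, and that of all genes was 0.16. Itga11, the alpha chain of a receptor for fibrillar collagen on mesenchymal cells, averaged 32.0 CPM at E14.5 and 0.590 CPM at E8.5, a log2 fold change of 5.73 ± 0.33 (edgeR adjusted p = 1e-15). Itga1, whose receptor also binds type IV collagen, averaged 40.7 CPM at E14.5 and 4.93 CPM at E8.5, a log2 fold change of 3.03 ± 0.17 (edgeR adjusted p = 4.21e-16). Lair1, an inhibitory receptor of leukocytes, averaged 1.12 CPM at E14.5 and 0.0663 CPM at E8.5 (3.95 ± 0.65, edgeR adjusted p = 3.09e-06), beside macrophage markers that summed to 107 CPM at E14.5 and 0.612 CPM at E8.5, whose part was not tested. Ddr1 and Gp6 did not pass.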

How the data were processed

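RNA sequencing of polyA RNA was analysed for 33 libraries, 3 at each of 11 stages. The authors deposited 1 table of raw counts per gene, whole numbers with a column per library, per the file headers. Tools in the submitters' processing notes are HISAT2 2.0.1, HTSeq 0.6.1 and cutadapt 1.9.1, with GRCm38 as the build. The gene models used, and whether counting was stranded, are not stated by any source used here. Column names gave each library's stage. Their final letters a, b and c have no stated link with numbered replicates and serve as names, and 0 other columns of per-sample values were present.

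Gene symbols, coordinates and strands came from GENCODE M21 (GRCm38), and 260 rows had no symbol. The test was the quasi-likelihood F-test of edgeR 4.0.16 (R 4.3.3). Its expression filter by stage kept 20073 genes, TMM factors ran from 0.797 to 1.175, and 1 coefficient per stage over all libraries left 22 residual degrees of freedom. The threshold was an adjusted p (Benjamini-Hochberg) of 0.05. Approximate standard errors were derived as fold change over the root of F. TPM used the exonic lengths in the deposited table. Ratios of groups with at most 3 counts carry a 95% exact counting interval. Replicates of a stage were never identical, and their lowest chi-square per gene was 1.85, above sampling noise.

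The genes described by library were the 3 most abundant tested genes per length in each class, the 3 largest rises and the 3 largest falls. Partner chains, and the 3 largest passing changes each way of each pathway list, were added. The other members given by library or value complete the account of the classes. The members, classes and lists, and the E12.5 against E11.5 comparison, were chosen with earlier results of these data known. Alternatives were the scaling, filters, tool (DESeq2 1.42.0), gene length, libraries and replicate block. The code was tested on simulated data. Figures were drawn with matplotlib 3.10.9.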

Additional observations from a re-analysis of the deposited data

How the results depend on the processing

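The count of collagen genes with any change, and the counts of higher and lower genes at E14.5 against E8.5, stayed within 1.5 times their values under each alternative. Of the log2 fold changes of single members at E14.5 against E8.5, 633 recomputed values kept their side of the threshold, and those that passed kept direction. A change of direction was not counted where neither fit passed. Of the others, 5 lost the call, 3 gained it and 1 turned round, Col4a2 with column totals alone (0.35, edgeR adjusted p = 0.0430). The other changes stand beside the genes above. Col4a3 was not tested under the stricter filter, and neither Col4a3 nor Col6a4 was tested for E14.5 against E8.5 with only the libraries of those stages, which gave 35 higher and 3 lower of 41 tested. Chain ratios are the same in RPKM as in TPM by construction.

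For E10.5 against E8.5, lower genes numbered 3 with column totals alone, against 5. For E14.5 against E12.5, lower genes numbered 1 with DESeq2 size factors, column totals, the stricter filter or DESeq2, against 2. For E12.5 against E11.5, higher genes numbered 1 with DESeq2 size factors, no filter, the stricter filter or DESeq2, 0 with column totals and 5 with the gene length trend removed, against 2. The cause was not tested.

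Leaving out each library in turn gave 42 to 43 genes with any change. It gave 36 to 37 higher and 3 to 3 lower at E14.5 against E8.5, 21 to 26 and 3 to 5 at E10.5 against E8.5, 22 to 27 and 8 to 9 at E12.5 against E10.5, 34 to 36 and 1 to 2 at E14.5 against E12.5, and 0 to 4 and 15 to 23 at E12.5 against E11.5. The single lower gene at E14.5 against E12.5 came without E8.5 a, E12.5 c, E14.5 b or E14.5 c. For E12.5 against E11.5, higher genes numbered 1 without E8.5 a, E11.5 b, E11.5 c, E12 b, E12.5 a or E12.5 b, 0 without E11.5 a or E12.5 c, and 4 without E12 c. Lower genes at E10.5 against E8.5 numbered 3 without E10.5 b.

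The column letters did not pair the libraries, since deviations of same-letter libraries correlated between -0.0686 and 0.0749. With the letter as a replicate block, calls numbered 40 of 40 at E14.5 against E8.5, 29 against 30 at E10.5 against E8.5, 33 of 33, 36 of 36, and 20 against 21 at E12.5 against E11.5. Depth limits the scarce members, Col4a3, Col4a4, Col6a4, Col6a5, Col10a1 and Col19a1.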
